A study of Meloidogyne incognita with 6 samples.

Results

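A set of 126 gene rows was followed whose transcripts were much lower in the middle than in the early stage of the infective juveniles (J2) of Meloidogyne incognita, a root-knot nematode that attacks many crops. The rows were taken from the 18433 rows whose ID has no final lower-case letter, out of 20365 rows in all. A row was included if its mean over the early libraries plus 1 FPKM was at least 4 times its mean over the middle libraries plus 1 FPKM, and if its lowest early value lay above its highest middle value. FPKM is the number of sequenced fragments of a row, divided by its length and scaled to the counted reads of the library. The series holds 3 RNA sequencing libraries of an early stage and 3 of a middle stage, all from wild-type animals, and was made to profile messenger RNA at both stages. How the stages were defined, the age of the animals, and whether the 3 libraries of a stage came from separate cultures are not stated in the labels, so the spread between libraries may be technical. No batch or date is given in the labels, and one that followed the stage cannot be told apart from it. The libraries were made from whole animals, so fewer cells of a type and less RNA per cell cannot be told apart.

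The J2 is the infective stage of root-knot nematodes. It hatches from the egg, moves through soil without feeding, lives on stored lipid, and enters the root near the tip. It then moves between root cells with the help of its stylet and of enzymes and other proteins secreted by its pharyngeal gland cells, and sets up the feeding site on which the later stages grow. The deposited table identifies rows only by IDs that start with Minc and pairs them with no gene name, product, position or sequence, so no role is given to any row below and the rows cannot be grouped by pathway.

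The same early and middle values that are compared below chose the rows. The size of the fall is therefore a description and carries no test. All 126 rows reached the mean of 1 FPKM over the 6 libraries that was required for the fit across rows. With an early mean of at least 3 FPKM forced by the choice, they could not have failed it. In that fit (limma on log2(FPKM + 1), Benjamini-Hochberg adjusted p under 0.05) 122 of the 126 rows were lower in middle J2, against 9.1% of all 13142 rows tested, a share from which nothing is read because the choice used the same contrast. The lowest early value lay above the highest middle value in 20% of all rows tested and, by choice, in every row of the set.

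The 6 libraries held between 5305983 and 7436406 counted reads by the steps of their FPKM values. Middle replicate 3 was the highest middle library in 76 of the 118 rows of the set that were above 0 in the middle stage (64.4%), against 36.8% of all rows tested, and so stood nearest to the early stage. Early replicate 3 was the highest early library in 69 of 126 rows (54.8%, against 32.5% of all rows tested). A smaller number of rows, described below, was much lower in early replicate 3 than in the other early libraries.

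In early J2 the 126 rows together held 3.55%, 3.13% and 4.13% of the FPKM sum in replicates 1, 2 and 3. In middle J2 they held 0.331%, 0.373% and 0.529%. The mean early share was 3.61 ± 0.504% (SD, n = 3), and the mean middle share 0.411 ± 0.105% (SD, n = 3). The lowest early share was thus far above the highest middle share, which the choice of rows fixes. By row, the early mean ranged from 3.08 to 2418 FPKM with a median of 63.7 FPKM. The middle mean ranged from 0 to 575 FPKM with a median of 4.10 FPKM. The ratio of early to middle, with 1 FPKM added to each, had a median of 7.44 and reached 177. It lay between 4 and 8 in 68 rows, between 8 and 16 in 29 rows, between 16 and 32 in 14 rows and at 32 or above in 15 rows.

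**Figure D1:**
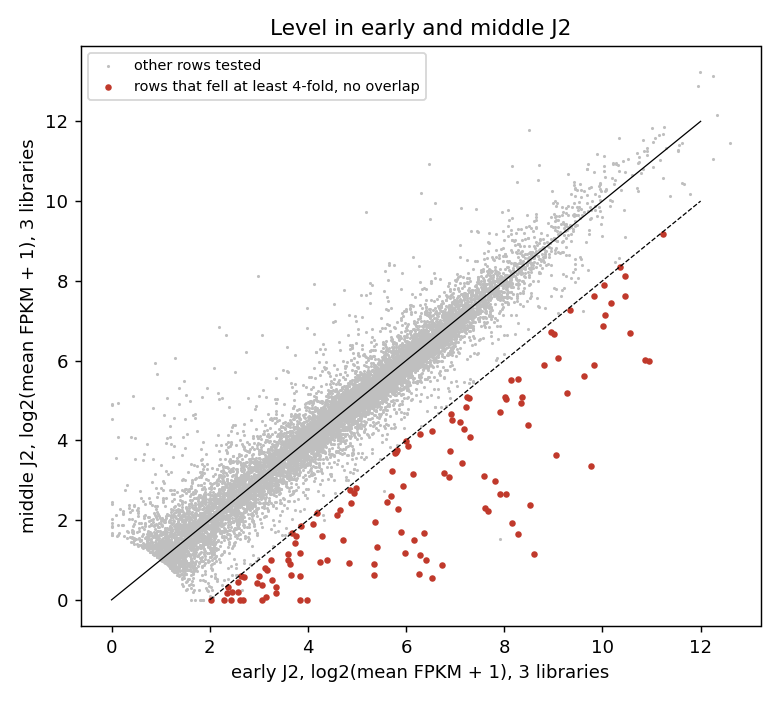
Each point is a row tested, placed by the log2 of its mean FPKM plus 1 over the 3 early libraries (x axis) and over the 3 middle libraries (y axis). The solid line marks equal levels and the dashed line a ratio of 4. The 126 rows of the set (red) lie below the dashed line at early levels from 3.08 to 2418 FPKM, and grey points beyond that line have a final letter in their ID or stages that overlap.

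The set held rows of very different early abundance. At an early mean of 1000 FPKM or more stood 11 rows, which held 50.1% of the summed early level of the set and made up 13.6% of the 81 tested rows at that level. Between 100 and 1000 FPKM stood 42 rows (2.26% of the 1858 tested rows of that level), between 20 and 100 FPKM 34 rows (0.595% of 5713) and between 3 and 20 FPKM 39 rows (1.04% of 3746). These levels are part of the choice, and the added 1 FPKM holds the ratio down at low levels, so the shares are not compared. With 0.1 FPKM added in place of 1 the set had 249 rows, and with 5 FPKM it had 75.

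What was left in middle J2 differed as widely. A middle mean below 1 FPKM was found in 36 rows, 28 of them among the 39 rows of the lowest early level. A middle mean of at least 100 FPKM was found in 13 rows. None of the 11 most abundant rows went below 63.1 FPKM in its middle mean, and their median there was 173 FPKM. A fall of at least 4 times thus left some rows near the limit of detection and others among the well expressed rows. Of the rows without a final letter, 14 of the set ranked among the 100 highest in early J2 and none ranked there in middle J2.

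The most abundant row of the set was Minc18702, of 364 bases. It stood at 2334, 1801 and 3120 FPKM in early replicates 1 to 3 and at 477, 593 and 654 FPKM in middle replicates 1 to 3. Its lowest early value was well above its highest middle value, yet it was still among the highest middle levels of the set, with a ratio of 4.20, close to the limit of the choice.

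The next 3 rows fell much further. Minc14741, of 265 bases, stood at 2121, 935 and 2907 FPKM in early and at 37.7, 53.2 and 98.4 FPKM in middle J2, with a ratio of 31.0. Minc18949, of 400 bases, stood at 1970, 1249 and 2372 FPKM in early and at 46.6, 34.9 and 111 FPKM in middle J2, with a ratio of 28.7 that was 44.7 without middle replicate 3. In both rows early replicate 2 was the lowest early library and middle replicate 3 the highest middle library, and the stages lay far apart. Minc07370, of 378 bases, had the same order of libraries, with 1585, 951 and 2024 FPKM in early and 69.8, 49.1 and 188 FPKM in middle J2. Its ratio was 14.7, and 25.2 without middle replicate 3.

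Of the remaining 6 rows of the 10 most abundant, 3 had 1 middle library that stood apart. Minc17158, of 1003 bases, stood at 1151, 1826 and 1266 FPKM in early and at 103, 112 and 373 FPKM in middle J2. Minc17115, of 928 bases, stood at 1356, 1153 and 931 FPKM in early and at 90.6, 106 and 323 FPKM in middle J2. Both were about equally low in middle replicates 1 and 2 and clearly higher in middle replicate 3, so that their ratios of 7.18 and 6.60 were 13.1 and 11.6 without it. Minc10883, of 210 bases, was instead highest in middle replicate 2, with 1205, 606 and 1352 FPKM in early and 92.4, 225 and 103 FPKM in middle J2. Its ratio was 7.48.

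Of the last 3, the first 2 were even among the middle libraries. Minc02380, of 1294 bases, stood at 1527, 1009 and 1703 FPKM in early and at 269, 260 and 297 FPKM in middle J2. Minc14072, of 594 bases, stood at 1190, 1129 and 1613 FPKM in early and at 307, 298 and 361 FPKM in middle J2. These are rows at the weaker end of the set, with ratios of 5.11 and 4.06, and with Minc18702 they had the 3 highest middle means of the set. Minc16842, of 712 bases, stood at 1176, 787 and 1174 FPKM in early and at 189, 222 and 297 FPKM in middle J2, with a ratio of 4.42, and was less even among them.

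**Figure D2:**
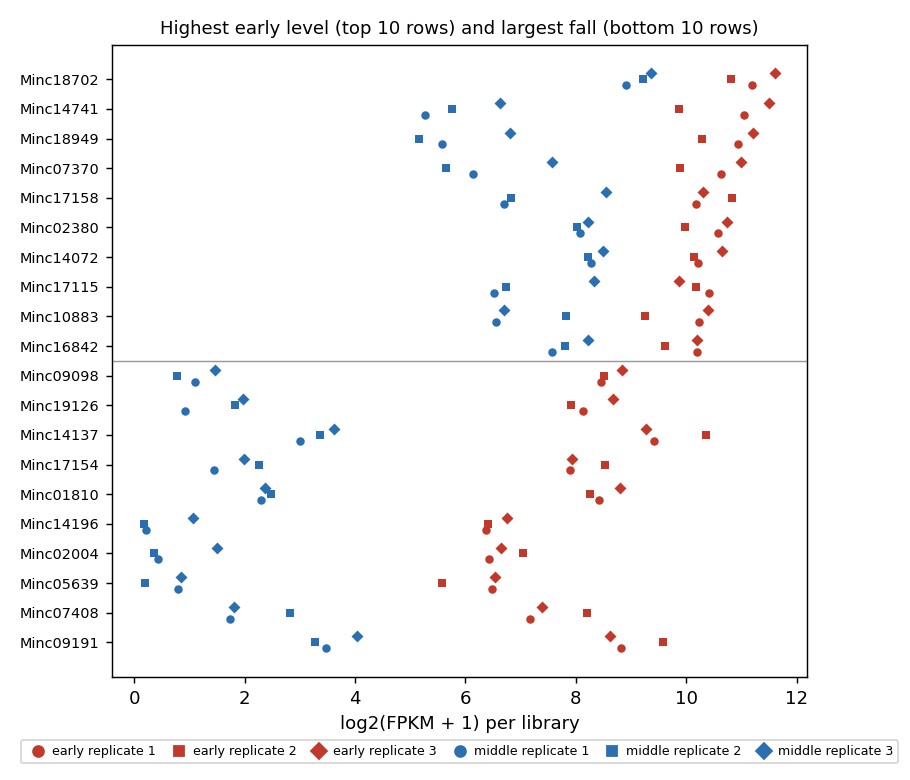
Values of log2(FPKM + 1) in each library (x axis) for the 10 rows with the highest early mean (above the line) and the 10 with the highest ratio of early to middle (below the line). Red points are early and blue points middle libraries, with the symbol giving the replicate. Middle values of the upper rows stay between 34.9 and 654 FPKM, and those of the lower rows between 0.128 and 15.4 FPKM.

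The 10 rows with the largest ratio were a separate group from the 10 most abundant, with no row in both. The first, Minc09098 of 654 bases, stood at 352, 363 and 454 FPKM in early and at 1.15, 0.703 and 1.76 FPKM in middle J2. It rested on 4877 early and 14 middle reads, which puts early J2 at 331 times middle J2 by reads scaled to depth (exact 95% binomial interval 197 to 607, counting error only). Minc19126, of 837 bases, stood at 280, 241 and 406 FPKM in early and at 0.901, 2.56 and 2.94 FPKM in middle J2. All 3 early libraries were high in both rows, and the middle libraries held 3 to 7 reads of Minc09098 and 4 to 15 reads of Minc19126.

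Minc14137, of 508 bases, was the most abundant of these 10, with 680, 1311 and 617 FPKM in early and 7.05, 9.35 and 11.3 FPKM in middle J2. It ranked 93 among the rows without a final letter in early and 9377 in middle J2. By reads the fold was 90.4 (73.1 to 113). Minc01810, of 669 bases, was even in middle J2, with 342, 306 and 446 FPKM in early and 3.94, 4.58 and 4.17 FPKM in middle J2. Its middle level of 4.23 ± 0.324 FPKM (SD, n = 3) rested on 51 reads, so that it was low but measured in every library.

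In 3 of these 10 rows the middle mean was below 1 FPKM. Minc14196, of 1195 bases, stood at 81.5, 83.6 and 107 FPKM in early and at 0.158, 0.128 and 1.10 FPKM in middle J2. Minc02004, of 534 bases, stood at 85.0, 131 and 99.2 FPKM in early and at 0.353, 0.287 and 1.84 FPKM in middle J2. In both rows most of the 10 and 8 middle reads came from middle replicate 3, and the other middle libraries held 1 read each. The fold by reads was 198 for Minc14196 (107 to 413) and 125 for Minc02004 (63.2 to 290), intervals that overlap that of Minc09098. The order of these rows by the ratio with 1 FPKM added is therefore not an order of the fall itself. Minc05639, of 1023 bases, stood at 88.2, 46.6 and 91.4 FPKM in early and at 0.737, 0.150 and 0.802 FPKM in middle J2, and its interval of 76.6 to 295 overlaps as well.

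The remaining 3 were all highest in early replicate 2. Minc17154, of 768 bases, stood at 236, 369 and 244 FPKM in early and at 1.72, 3.79 and 2.99 FPKM in middle J2. Minc07408, of 326 bases, stood at 143, 294 and 167 FPKM in early and at 2.31, 6.11 and 2.52 FPKM in middle J2, with middle replicate 2 also above the other middle libraries. Minc09191, of 651 bases, stood at 449, 762 and 390 FPKM in early and at 10.1, 8.71 and 15.4 FPKM in middle J2. In each the lowest early value was far above the highest middle value.

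At the other end of the set the fall rests on few reads. The 3 rows with the lowest early mean were Minc16463, Minc16568 and Minc14959. Minc16463 stood at 7.35, 1.07 and 0.815 FPKM in early J2 on 9 reads in all and was listed at 0 in every middle library. Its ratio of 4.08 was 1.94 without early replicate 1. Minc16568 stood at 1.56, 6.39 and 3.63 FPKM in early J2 on 8 reads and was likewise listed at 0. Both rows were set against 3 reads, about the upper 95% limit for 0 reads over the whole middle stage. With the early reads taken as counted, their early levels were at least 2.85-fold and at least 2.54-fold higher, below the 4-fold of the choice. An exact interval that also covers the counting error of the early reads had lower limits of 1.88 and 1.62. Minc14959 was even in early J2, at 4.11, 4.20 and 4.06 FPKM, and was seen in middle replicate 1 only, at 0.406 FPKM on 1 read. Its fold by reads was 34.2, with an interval of 5.77 to 1390.

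In all, 8 rows were listed at 0 in the 3 middle libraries. None was at 0 in any early library, which the choice of rows fixes. Their early means lay between 3.08 and 14.7 FPKM and their early reads between 8 and 98, so all 8 were scarce in early J2. The 5 highest of them were Minc09145 (10.9, 10.1 and 23.3 FPKM in early J2), Minc14960 (11.9, 10.2 and 17.8 FPKM), Minc02360 (5.31, 12.2 and 4.64 FPKM), Minc07535 (2.85, 5.83 and 7.58 FPKM) and Minc06787 (5.27, 9.43 and 0.613 FPKM). Against the same 3 reads, with the early reads taken as counted, the early level was at least 31.1-fold higher for Minc09145 and at least 18.4-fold higher for Minc06787. It was at least 14.3-fold higher for Minc14960 and for Minc07535, and at least 11.1-fold higher for Minc02360. The lower limits of the exact interval were smaller, at 24.8, 14.5, 11.1, 11.1 and 8.56 in the same order of rows. Without early replicate 2 the ratio of Minc06787 was 3.94 in place of 6.10, below the limit of the choice. At this depth, a low level in middle J2 cannot be told from absence in these rows.

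The limit of the choice cut through rows that were much alike. Just inside it stood Minc05963, at 15.6, 14.1 and 21.8 FPKM in early and 2.46, 3.33 and 4.75 FPKM in middle J2, with a ratio of 4.03. Minc03139 had a ratio of 4.04, with 9.27, 12.4 and 13.8 FPKM in early and 0.776, 4.42 and 1.35 FPKM in middle J2, and of 6.22 without middle replicate 2. Just outside stood Minc02257 with a ratio of 3.99, at 2.74, 6.17 and 0.571 FPKM in early and 0, 0 and 0.127 FPKM in middle J2, and Minc07665 with a ratio of 3.94, at 15.5, 13.6 and 21.8 FPKM in early and 3.22, 3.28 and 4.21 FPKM in middle J2. A further 2 rows reached a ratio of 4 but had overlapping stages. They were Minc12898, listed at 0 in early replicate 1 and in all middle libraries, and Minc17576, whose early replicate 3 at 3.32 FPKM lay below middle replicate 1 at 5.43 FPKM.

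The gap between the stages was wide in most rows of the set. The choice required a ratio of at least 4 and no overlap, so it favours a wide gap, and the counts only describe the set. The lowest early value was at least 2 times the highest middle value in 119 of 126 rows and at least 4 times in 73. It was under 1.5 times in 4 rows. The smallest gaps were those of Minc16612, at 12.9, 9.89 and 1.23 FPKM in early and 1.05, 0.777 and 0.249 FPKM in middle J2, and of Minc17140, at 43.7, 34.6 and 7.05 FPKM in early and 3.82, 3.43 and 5.85 FPKM in middle J2. In both, early replicates 1 and 2 were high and early replicate 3 stood just above the middle libraries. The 4 rows of the set that did not pass the threshold of the limma fit were Minc16612, Minc19183, Minc15525 and Minc16463, with early means between 3.08 and 11.5 FPKM. In the first 3 of them early replicate 3 was at least 3 times below both other early libraries, and Minc15525 and Minc16463 were high in early replicate 1 only, at 13.1 and 7.35 FPKM.

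The rows of the set differed among themselves in how they were spread over the early libraries, and 3 patterns, drawn up after the values were seen, held 46 of the 126 rows between them. The spread within a stage was larger in the set than elsewhere. The median SD of log2(FPKM + 1) over the 3 early libraries was 0.40 in the set and 0.15 over all rows tested, and over the middle libraries 0.43 and 0.17. Among rows with an early mean of at least 20 FPKM the early value was 0.36 in the set and 0.11 over all such rows. The middle values are not matched for level, since rows of the set are low there by choice. The highest early value was under 1.5 times the lowest in 39 rows and at least 3 times in 20.

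In the first pattern early replicate 3 was at least 3 times below both other early libraries. It was shown by 10 rows of the set (7.94%) and by 96 of all rows tested (0.730%). The median levels of the 10 rows were 14.5, 10.3 and 1.57 FPKM in early and 0.694, 0.232 and 0.285 FPKM in middle J2. These rows were scarce, with early means from 4.45 to 28.4 FPKM, and in them early replicate 3 was nearer to the middle than to the other early libraries. Minc16032, at 15.8, 22.2 and 2.12 FPKM in early and 1.04, 0 and 0.517 FPKM in middle J2, is an example. Minc15728 is another, at 32.7, 37.8 and 4.83 FPKM in early and 2.41, 1.10 and 1.97 FPKM in middle J2. Among all 96 rows of the pattern, early replicate 3 was not above the middle libraries in 77, and these could not enter the set.

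In the second pattern early replicate 2 was at least 1.5 times both other early libraries, as in 16 rows of the set (12.7%) and 520 of all rows tested (3.96%). Their median levels were 23.2, 93.8 and 12.3 FPKM in early and 1.12, 2.60 and 2.29 FPKM in middle J2. Minc14137, Minc17154, Minc07408 and Minc09191, named above for their large ratios, belong here. Minc02447 was the most extreme of those shown here, at 24.2, 131 and 14.0 FPKM in early and 2.81, 6.61 and 2.18 FPKM in middle J2. A high early replicate 2 also raises the early mean used by the choice, so the 2 shares are not read further. Without early replicate 2 the ratio moved by over 1.5 times in 5 rows of the set. Among them were Minc02447, from 11.8 to 4.12, and Minc16426, from 4.79 to 2.72. Middle replicate 3 was the highest middle library in 6 of the 16 rows.

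In the third pattern early replicate 2 was below both others by at least 1.5 times, as in 21 rows of the set (16.7%) and 588 of all rows tested (4.47%). Their median levels were 149, 77.2 and 201 FPKM in early and 11.2, 7.32 and 16.3 FPKM in middle J2. Minc14741, Minc18949, Minc07370, Minc02380, Minc10883 and Minc05639 belong here, so that 5 of the 10 most abundant rows of the set shared it. In these 21 rows middle replicate 2 was the lowest middle library in 15 and middle replicate 3 the highest in 16. Over the 118 rows of the set above 0 in middle J2 these counts were 60 and 76. Minc06787 met both the first and the second pattern. The other 80 rows were more even in early J2, with medians of 58.9, 58.9 and 78.5 FPKM, and middle replicate 3 was the highest middle library in 52 of them. Whether these patterns come from the animals or from the libraries was not tested.

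**Figure D3:**
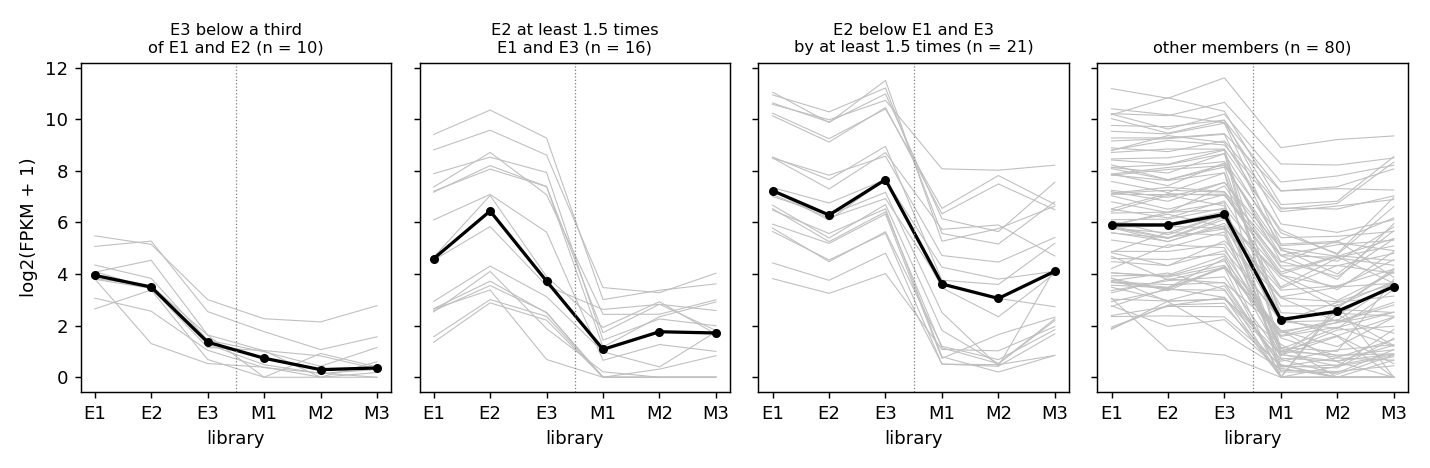
Values of log2(FPKM + 1) of the rows of the set in the early (E1 to E3) and middle (M1 to M3) libraries, by pattern over the early libraries. Grey lines are rows and the black line is the median of the panel. In the first panel early replicate 3 lies near the middle libraries, with a median of 1.57 FPKM against 14.5 and 10.3 FPKM in early replicates 1 and 2, and in the last panel the early medians are 58.9, 58.9 and 78.5 FPKM.

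A reading that the choice fixed only in part came from libraries left out of it. When 1 library was left out and rows were chosen by the same limits from the other 5, between 120 and 143 rows were found, 113 to 121 of them in the set. The left-out library then lay on the side of its own stage, beyond every library of the other stage, in 96.2% (127 of 132 rows, early replicate 3) to 99.2% (119 of 120 rows, middle replicate 1) of the chosen rows. Over all rows tested the same held in 29.5% to 37.6%. The 3 libraries of the other stage had taken part in the choice, so the left-out library was new and the side it was set against was not. The rows chosen without early replicate 3 included 22 in which that library was less than 2 times the middle level, of 132, while the rows chosen without early replicate 1 or 2 included 5 of 134 and 3 of 136.

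With 1 early and 1 middle library left out together, the chosen rows could be read in a pair of libraries that had no part in the choice. Over the 9 such pairs the left-out early library exceeded the left-out middle library in 93.4% to 98.5% of the 121 to 152 rows chosen, against 45.5% to 55.1% of all rows tested. The median ratio in the left-out pair, with 1 FPKM added, was 4.54 to 8.40, and over all rows tested it was 0.972 to 1.04. With middle replicate 3 in the pair the median was 4.60, 4.89 and 4.54, below the 6.48 to 6.64 of the libraries that had chosen the rows. In the 6 pairs with another middle library it was 6.79 to 8.40 and no smaller than in the choosing libraries. Over the 9 pairs, 56.6% to 79.3% of the chosen rows reached a ratio of at least 4 in the left-out pair, and the rest fell short of it. Of all rows tested, 1.04% to 1.53% reached it. The 9 pairs share libraries and are not independent of each other.

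**Figure D4:**
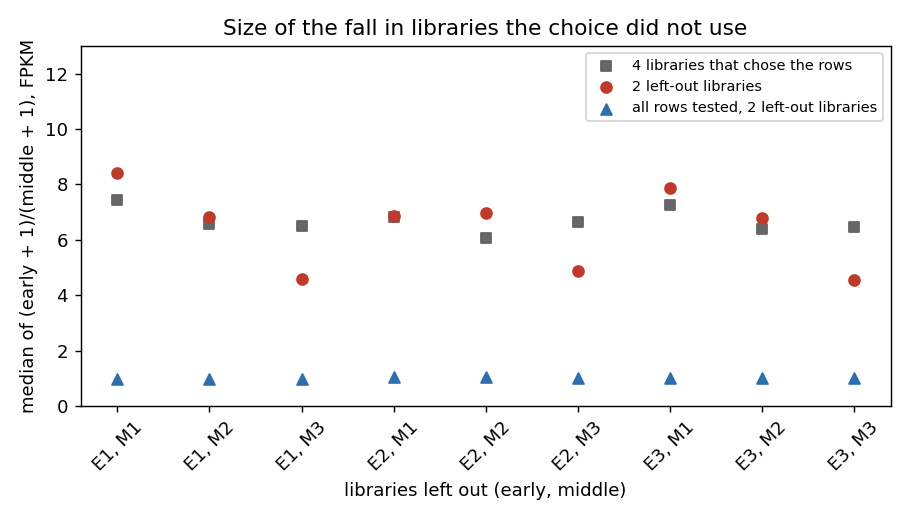
Median of the ratio of early to middle FPKM, with 1 added to each (y axis), for rows chosen without 1 early and 1 middle library (x axis, E for early and M for middle). Grey squares are the 4 libraries that chose the rows, red circles the 2 libraries left out, and blue triangles all rows tested in those 2 libraries. The red circles lie at 6.79 to 8.40 except where M3 was left out, where they lie at 4.54 to 4.89.

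Short gene models were more frequent in the set than elsewhere. The lengths recovered from the FPKM values had a median of 639 bases in the set, with quartiles of 373 and 1042 bases, and a median of 939 bases over all rows tested, with quartiles of 531 and 1539. With all rows tested divided by length into 5 groups of about equal size, the shortest group (36 to 453 bases) held 46 rows of the set, or 1.75% of its 2631 rows. The next groups held 34 (1.29%), 18 (0.684%) and 19 (0.723%), and the longest (1736 bases and over) 9 rows (0.343%). Among rows with an early mean of at least 20 FPKM the medians were 624 bases in the set and 1035 bases over all such rows. Below 20 FPKM they were 658 and 810 bases, so that the difference was present at both levels. FPKM is divided by length, so a fall of given size rests on fewer reads in a short row. Several of the most abundant rows were among the short ones, Minc10883 with 210, Minc14741 with 265 and Minc18702 with 364 bases.

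The recovered lengths were also compared with multiples of 3, the length of a codon. Of the 94 rows of the set with at least 200 reads in all, 52 (55.3%) had such a length, against 69.6% of the 9948 tested rows with as many reads. From the shortest to the longest group of rows by length the shares in the set were 62.1%, 48.1%, 68.8%, 35.7% and 62.5%, on 29, 27, 16, 14 and 8 rows. Over all such rows tested they were 79.7%, 68.1%, 68.7%, 67.6% and 68.5%, so that the shares of the third group were alike. These shares were not tested, and reads that share a common factor give a length that is too short.

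Some rows of the set had neighbouring ID numbers. Of the 126 rows, 24 (19.0%) were next to another row of the set by number, in 10 runs, and 32 (25.4%) had another within 5 numbers. Read the other way, 236 rows had a row of the set next to them by number, and 10.2% of these were themselves in the set, against 0.684% of all rows without a final letter. Whether neighbouring numbers stand for neighbouring genes is not stated in the labels, and reads shared between near-identical copies cannot be separated. The longest run held 5 rows, Minc09144 to Minc09148. Minc09146 was the highest of them, at 60.2, 35.5 and 79.3 FPKM in early and 0.661, 2.15 and 4.03 FPKM in middle J2. Minc09144 stood at 11.8, 9.74 and 18.6 FPKM in early and at 1.88, 0.765 and 1.09 FPKM in middle J2. Minc09148 stood at 10.2, 6.86 and 10.7 FPKM in early J2 and in middle J2 at 0.384 FPKM in replicate 1 and at 0 in replicates 2 and 3. Minc09147 was the lowest, at 2.71, 5.95 and 6.32 FPKM in early and 0, 0.343 and 0.734 FPKM in middle J2, and Minc09145 is given above.

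These 5 rows, each chosen for its fall, started from unequal levels. Their lengths of 601, 335, 285, 447 and 491 bases differ. The ratio of Minc09146 to Minc09147 was 22.2, 5.96 and 12.5 in the early libraries, on 7, 15 and 21 reads of Minc09147. That of Minc09147 to Minc09148 varied as well, at 0.265, 0.867 and 0.591. The ratio of Minc09144 to Minc09145 was steadier, at 1.09, 0.968 and 0.798, and that of Minc09145 to Minc09146 was 0.180, 0.284 and 0.294. A run of 3 rows stood at higher levels. Minc02056, of 553 bases, stood at 281, 301 and 406 FPKM in early and at 33.4, 36.3 and 29.1 FPKM in middle J2. Minc02057, of 734 bases, stood at 235, 171 and 316 FPKM in early and at 21.6, 14.0 and 40.2 FPKM in middle J2. Minc02058, of 1272 bases, stood at 145, 112 and 186 FPKM in early and at 25.2, 24.1 and 33.1 FPKM in middle J2. The first of these was 10.2 times as high in early J2 by reads (9.10 to 11.5) and the third 5.51 times (5.06 to 6.01). These intervals leave out the spread between libraries, and whether rows of the same run fell by different factors was not tested.

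The other 8 runs were pairs. In the pair of Minc05639 and Minc05640 the second stood at 54.0, 21.3 and 48.9 FPKM in early and at 1.30, 0.605 and 2.59 FPKM in middle J2. Both rows were lowest in early replicate 2 and in middle replicate 2. Minc17154 and Minc17155 were both highest in early replicate 2, the second at 148, 267 and 167 FPKM in early and 1.26, 4.09 and 6.56 FPKM in middle J2. In the pair of Minc18702 and Minc18703 the levels were far apart. The second stood at 15.6, 13.8 and 19.3 FPKM in early and at 2.28, 3.71 and 2.27 FPKM in middle J2. The ratios were 4.20 and 4.59, the second held down by the added 1 FPKM. By reads the folds were 4.29 (4.14 to 4.44) and 5.90 (3.97 to 9.07), intervals that cover counting error only.

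Rows next to the set by number, but not in it, also held more strong falls than rows elsewhere, a difference that was described and not tested. Of 212 such rows, 138 reached a mean of 1 FPKM. A log2 fold of -1 or lower (middle minus early, on log2(mean FPKM + 1)) was found in 19 of the 138 (13.8%), against 2.62% of the 13016 tested rows outside the set. A log2 fold of 1 or higher was found in 10 (7.25%), against 4.22%. In the limma fit (adjusted p under 0.05) 19 of the 138 rows were lower (13.8%, against 8.25%) and 19 were higher (13.8%, against 9.41%). Neighbours were thus called more often in both directions, while strong falls were the commoner of the strong changes. The median log2 fold was -0.08, with quartiles of -0.52 and 0.31, against a median of 0.00 and quartiles of -0.22 and 0.25 outside the set. At 2 numbers from a row of the set, 4.58% of 153 rows had a log2 fold of -1 or lower.

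Some of these neighbours were abundant. Minc18383, next to Minc18382, stood at 2786, 2394 and 2826 FPKM in early and at 1046, 718 and 1610 FPKM in middle J2. Minc13127, next to Minc13128, stood at 198, 264 and 218 FPKM in early and at 67.0, 56.9 and 66.1 FPKM in middle J2. Both passed the threshold of the limma fit, and both were chosen for mention after their values were seen. Minc18382 itself stood at 135, 71.3 and 121 FPKM in early and at 11.2, 7.32 and 5.66 FPKM in middle J2, and Minc13128 at 149, 67.0 and 204 FPKM in early and at 10.1, 4.09 and 15.3 FPKM in middle J2. In each pair the row of the set was lowest in early replicate 2 and its neighbour was lower by a smaller factor.

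Other neighbours moved the other way. The most unlike pairs were Minc11892 with Minc11891 and Minc04760 with Minc04761. Minc04760, of 926 bases, was even in early J2, at 571, 608 and 684 FPKM in early and 29.1, 21.5 and 56.0 FPKM in middle J2. Minc04761 stood at 43.6, 19.0 and 29.3 FPKM in early and at 27.8, 325 and 28.7 FPKM in middle J2, so that it was high in middle replicate 2 only. Minc11892 stood at 14.2, 14.6 and 25.0 FPKM in early and at 0.816, 1.99 and 0 FPKM in middle J2. Minc11891 stood at 0.540, 0.553 and 1.26 FPKM in early and at 1.17, 19.1 and 0 FPKM in middle J2, again high in middle replicate 2 alone. The stages of both unlike neighbours overlapped, and neither passed the threshold of the limma fit.

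**Figure D5:**
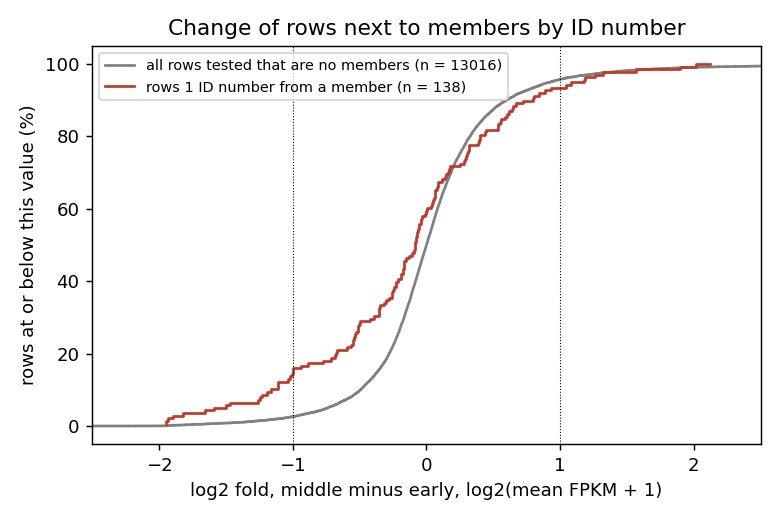
Share of rows at or below a given log2 fold (middle minus early, on log2(mean FPKM + 1)), for the 138 tested rows 1 ID number from a row of the set (red) and for all 13016 tested rows outside the set (grey). At a log2 fold of -1 (left dotted line) the red curve stands at 13.8% and the grey curve at 2.62%.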

How the data were processed

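RNA was extracted with Trizol and made into Illumina libraries, per the labels' protocols. The submitters' processing notes name CASAVA and TopHat2. No version is named for either, and neither a counting tool nor an annotation, genome build or strand setting is stated there. The authors deposited FPKM values for each of the 6 libraries, per the file header, and 16 columns without a name were not used. Groups come from the labels, with 3 libraries per stage.

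The rows of the set were chosen by their FPKM as stated in the report. The set, the rule for naming rows, the tests and most alternatives were chosen with earlier results of these data known. Rows named were the 10 highest in early J2, the 10 with the highest ratio, those at the limits, at 0 and in runs, and the most unlike neighbours. Lists of genes by function could not be applied, as the IDs carry no annotation here. Any other row named was chosen after its values were seen. Rows averaging 1 FPKM or more over the 6 libraries were fitted on log2(FPKM + 1), with a pseudocount of 1, by limma 3.58.1 in R 4.3.3 (stage, intensity trend, two-sided, Benjamini-Hochberg over all rows, threshold 0.05). Such fold changes understate the change of low rows.

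Reads and gene model lengths were recovered from the FPKM values, which are whole multiples of the value of 1 read. All 17197 rows above 0 gave whole reads within 0.001. Lengths were picked so that the reads came out whole, so this closeness does not test them. Whether single reads or read pairs were counted is not stated. A library of 5305983 to 7436406 reads gives 0.134 to 0.188 FPKM per read at 1 kilobase. Intervals and the limit of 3 reads over a stage cover counting error only. The limma fit and the recovery of reads and lengths were tested on simulated data, and the intervals were not. Alternatives were other pseudocounts, filters, scalings, no trend, the replicate number as a block, voom on the recovered reads and each library left out. Python 3.11.15, numpy 2.4.6, pandas 2.3.3, scipy 1.17.1 and matplotlib 3.10.9 were used.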

Additional observations from a re-analysis of the deposited data

How the results depend on the processing

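The number of rows in the set depended on the limits that define it, with 249 rows at an added 0.1 FPKM, 75 at 5 FPKM, 427 at a ratio of 2 and 58 at a ratio of 8. It was 133 after rescaling to the same FPKM sum, 130 with lettered IDs, and 120 to 143 without any 1 library. The share of the FPKM sum ranged from 2.99% to 3.96% in early and from 0.315% to 0.434% in middle J2 as rows were chosen without 1 library. The percentage of left-out libraries on their own side was 97.6 over all 6, and 96.2 to 99.2 by library.

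Calls over all rows were 2421, and 1362 to 2263 without 1 library, in fits that hold fewer libraries. The lowest, 1362, left out middle replicate 1. Leaving out early replicate 1 gave 1456 and early replicate 3 gave 1503. Rows of the set called lower numbered 122, and 102 to 123 under all 15 alternatives. The 102 came with a mean of at least 5 FPKM, a filter that leaves low rows of the set out of the fit. With voom the number was 110, and voom, like the alternatives for neighbour shares, was chosen after seeing the data. A replicate block gave 2187 calls, 122 of them lower in the set. The libraries of one number had deviations with correlations of 0.005, 0.089 and 0.120, and over the rows of the set alone of 0.138, 0.195 and 0.193. Between libraries of unlike number they ran from -0.153 to 0.077 over all rows and from -0.223 to 0.052 over the rows of the set. In the set each value of one number was thus above all those of unlike number. Over all rows not every value of one number exceeds 0.1, so the numbers were not taken as pairs.

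The median log2 fold of neighbours moved from -0.081 to -0.010 at 2 numbers apart and to -0.00697 with no filter on low values, and ranged from -0.150 to -0.058 without 1 library. The share of neighbours at a log2 fold of -1 or lower was 10.8% at a mean of at least 5 FPKM, 4.58% at 2 numbers apart and 10.8% to 13.9% without 1 library. At a ratio of 8, 8 of 58 rows were next to another row of the set by number, and at a ratio of 2, 107 of 427. Without 1 library, the log2 early over middle of Minc11891 ranged from -2.64 to 0.168 and that of Minc04761 from -2.49 to 0.115. Both turned above 0 without middle replicate 2. The causes of these shifts were not tested. Without 1 library the ratio moved by over 1.5 times in 25 of 126 rows of the set, 13 of them without middle replicate 3. Depth limits the 4 rows with under 30 early reads.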
